A study of Mus musculus with 11 samples.

Results

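Brown fat burns lipid and releases the energy as heat, and the 10 thermogenic genes described here hold the core of that program: the uncoupling proteins Ucp1, Ucp2 and Ucp3, the lipid droplet protein Cidea, the fatty acid elongase Elovl3, the deiodinase Dio2, the coactivators Ppargc1a and Ppargc1b and the transcription factors Prdm16 and Zic1. They were chosen by name, and every array probe that carried one of these names was used, which gave 13 of the 55681 probes of the array and 10 of its 36413 gene names. Ucp3, Ppargc1a and Zic1 had 2 probes each and the other genes 1. Of the 13 probes, 11 were detected, which required a found spot well above the background on 5 or more arrays of 1 of the groups, and each of the 10 genes kept at least 1 detected probe.

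RNA was measured in the descending aorta of male C57BL/6 mice aged 20 months, on one-color arrays with 1 mouse per array. The treated mice (n = 5) had drunk water with 1 g/L NaNO3, sodium nitrate, for 8 weeks, and are called old nitrate treated mice. The controls (n = 6) had the same strain, sex and age. The study's methods give them sodium chloride in the water, whereas their labels name only a control and mark them as a reanalysis of earlier samples, so the labels leave unsaid whether both groups were kept together. The sixth nitrate treated mouse of the study was not analysed here. The vessel was flushed and cleaned of the fat around it before RNA was extracted. The adipocyte hormone gene Adipoq, the smooth muscle gene Myh11 and the endothelial gene Pecam1 were nevertheless well above background on each of the 11 arrays. In RNA from whole tissue, fewer cells of a type and less RNA per cell cannot be told apart. The question of the comparison was whether expression of these genes in the aged aorta differed after dietary nitrate.

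Ucp1 is a carrier of the inner mitochondrial membrane that lets protons return without making ATP, and it is the defining protein of brown and beige adipocytes. Cold and noradrenaline act through beta adrenergic receptors and cyclic AMP, which raise transcription of Ucp1, Ppargc1a and Dio2, and Dio2 in turn makes active thyroid hormone inside the cell. In rodents the fat around the thoracic aorta resembles brown fat.

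The letters of 3 probes are shown because each signal reads 1 such stretch of transcript, and because Ucp3 and Zic1 had a second probe with which it could be set side by side. They are given 5′ to 3′ on the sense strand, with the positions that the array files state in mm9. The Ucp1 probe A_51_P426353 lies at chr8:85821788-85821847 on the plus strand, the Ucp3 probe A_66_P108247 at chr7:107630399-107630458 on the plus strand and the Zic1 probe A_55_P2009774 at chr9:91257301-91257360 on the minus strand.
Ucp1: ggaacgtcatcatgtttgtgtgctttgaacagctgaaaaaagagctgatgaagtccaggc
Ucp3: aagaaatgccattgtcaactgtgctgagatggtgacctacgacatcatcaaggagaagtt
Zic1: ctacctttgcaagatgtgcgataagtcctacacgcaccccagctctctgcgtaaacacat

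Promoters are shown for the 3 genes best known as cyclic AMP targets, as the 250 bases before the transcription start in RefSeq sequence of build GRCm38.p6, which is not the build of the probe positions. Capitals mark TGACG, the core of the cyclic AMP response element, searched on both strands. The windows are chr8:83290098-83290347 on the plus strand for Ucp1, chr12:90739039-90739288 on the minus strand for Dio2 and chr5:51567726-51567975 on the minus strand for Ppargc1a.
Ucp1: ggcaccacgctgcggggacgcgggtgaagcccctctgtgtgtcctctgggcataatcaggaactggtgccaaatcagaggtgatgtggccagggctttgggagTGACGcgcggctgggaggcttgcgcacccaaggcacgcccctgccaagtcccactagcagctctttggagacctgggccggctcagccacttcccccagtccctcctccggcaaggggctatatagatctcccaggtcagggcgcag
Dio2: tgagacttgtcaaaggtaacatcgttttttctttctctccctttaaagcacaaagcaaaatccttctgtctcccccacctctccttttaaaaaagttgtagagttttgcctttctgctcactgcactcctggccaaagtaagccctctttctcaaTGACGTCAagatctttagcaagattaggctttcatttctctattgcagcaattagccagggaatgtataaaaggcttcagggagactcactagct
Ppargc1a: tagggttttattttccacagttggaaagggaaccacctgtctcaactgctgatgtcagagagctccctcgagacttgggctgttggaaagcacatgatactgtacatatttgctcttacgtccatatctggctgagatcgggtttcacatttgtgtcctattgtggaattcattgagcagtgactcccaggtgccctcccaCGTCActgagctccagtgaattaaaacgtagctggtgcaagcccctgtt

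The core began at position -147 from the transcription start in Ucp1 and on the opposite strand at -49 in Ppargc1a. In Dio2 the cores of both strands overlapped from -95 and made up the full palindrome TGACGTCA, which 1.55% of 32851 promoter windows held. Promoters were found for 7 of the 10 genes, and those of Cidea, Elovl3 and Ppargc1b were not searched here. The core was in 4 of these, the fourth being Ucp2 at -62 on the opposite strand, against 17.8% of all windows, and it was not in these letters of Ucp3, Prdm16 and Zic1.

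Levels are given as log2 of the quantile normalized signal, a scale on which 1 unit is a fold change of 2, and differences as old nitrate treated mice minus controls. A gene was counted as differentially expressed where limma's moderated test gave a P value under 0.05, unadjusted, and the fold change was above 1.2, the limits used in the study. By this rule 3 of the 10 thermogenic genes differed. Prdm16 was higher in old nitrate treated mice, and Cidea and Ppargc1b were lower, while Ucp1, Ucp2, Ucp3, Ppargc1a, Dio2, Elovl3 and Zic1 did not pass. Of all 23633 detected probes 9.00% passed, 4.16% higher and 4.85% lower. After Benjamini-Hochberg adjustment over all detected probes no thermogenic gene had an adjusted P value under 0.05, which 0.0127% of the detected probes had, whereas before adjustment 3 of the 10 genes and 14.4% of the detected probes had one. In none of the 13 probes did the groups fail to overlap, which they did in 2.75% of detected probes. Over the 10 genes, 5 differences were positive and 5 negative with a median of -0.05, and the median over all detected probes was 0.01.

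**Figure D1:**
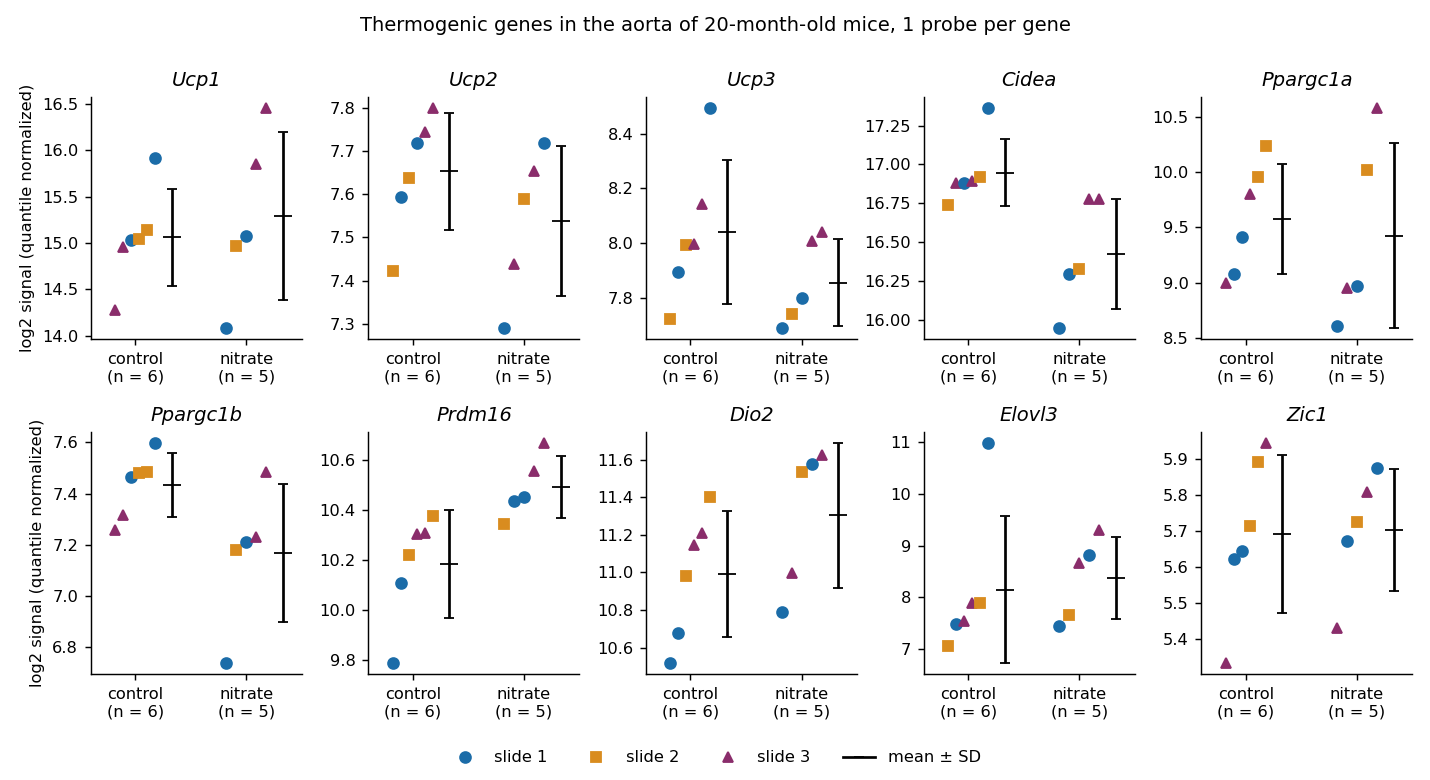
Quantile normalized log2 signal (vertical axes, scaled for each gene) of the 10 thermogenic genes in 6 controls and 5 old nitrate treated mice, 1 detected probe per gene; each point is 1 mouse, its shape and color give the slide of its array, and bars are the mean ± SD. Cidea and Ppargc1b sit lower and Prdm16 higher in the nitrate group with overlap between the groups, and Ucp1 spreads from 14.08 to 16.46 among nitrate treated mice.

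Of the uncoupling proteins, Ucp1 varied widely between mice and did not differ between the groups past the limits. Its log2 signal in old nitrate treated mice 1 to 5 was 15.07, 14.08, 14.97, 15.85 and 16.46, and in controls it ran from 14.28 over a median of 15.04 to 15.91. The lowest and the highest of the 11 mice were both nitrate treated, and the groups overlapped. The means were 15.29 ± 0.91 (SD, n = 5) and 15.06 ± 0.52 (SD, n = 6), a difference of 0.23 with a standard error of 0.38 (P = 0.563, adjusted P = 0.828, limma; P = 0.662, two-sided exact permutation test). Its 95% interval reached from -0.61 to 1.06. Before normalization the signal ran from 16796 to 104532 and no spot was saturated. Over the 11 mice Ucp1 spanned 2.38 log2 units, a 5.21-fold range.

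Ucp2 is a widely expressed carrier related to Ucp1. In old nitrate treated mice its log2 signal was 7.29, 7.72, 7.59, 7.65 and 7.44, and in controls it ran from 7.42 over a median of 7.68 to 7.80. Nitrate treated mouse 2 lay among the higher controls and nitrate treated mouse 1 below all of them. The difference of -0.11 (SE 0.09) did not pass (P = 0.247, two-sided exact permutation test), and its 95% interval was -0.32 to 0.09.

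Ucp3 is the uncoupling protein of skeletal muscle and brown fat, and its 2 probes lie on different parts of the transcript. With probe A_66_P108247, printed above, the log2 signal was 7.69, 7.80, 7.74, 8.04 and 8.01 in old nitrate treated mice and 7.72 to 8.496 with a median of 8.00 in controls. The second probe, A_52_P380379 at chr7:107634291-107634350, gave 6.76, 6.60, 6.69, 7.55 and 7.96 against 6.91 to 7.70 with a median of 7.40. On this second probe nitrate treated mice 1, 2 and 3 lay below every control and mouse 5 above every control. The differences were -0.19 (SE 0.13) and -0.24 (SE 0.24), and neither passed (P = 0.206 and P = 0.385, two-sided exact permutation tests). Without nitrate treated mouse 5 the second probe was at -0.46 and past the unadjusted threshold in limma's test (P = 0.0416) but not in the two-sided exact permutation test (P = 0.0952). Without slide 3 it was at -0.61 (P = 0.00759, limma; P = 0.0571, two-sided exact permutation test), and without slide 1 the direction turned, at 0.016 (P = 0.954, limma; P = 0.971, two-sided exact permutation test).

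Cidea, which sits on lipid droplets of brown adipocytes and helps them to enlarge, was lower in old nitrate treated mice. Its log2 signal was 16.30, 15.95, 16.33, 16.78 and 16.78 in old nitrate treated mice and ran from 16.74 over a median of 16.89 to 17.37 in controls. Nitrate treated mice 1, 2 and 3 lay below every control, and mice 4 and 5 lay between the lowest control and the next. The means were 16.43 ± 0.35 (SD, n = 5) and 16.95 ± 0.22 (SD, n = 6), a difference of -0.52 with a standard error of 0.16, or 1.43-fold (P = 0.00642, adjusted P = 0.214, limma; P = 0.00649, two-sided exact permutation test). With each mouse left out in turn limma's P value stayed between 0.00270 and 0.0170. Without the 4 arrays of slide 1 the call was lost, at -0.23 (P = 0.108, limma; P = 0.114, two-sided exact permutation test). The probe, A_51_P199168, lies at chr18:67527351-67527410.

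Elovl3 elongates saturated fatty acids and is strongly induced in brown fat by cold. Its log2 signal was 8.83, 7.44, 7.66, 8.66 and 9.30 in old nitrate treated mice. Control 1 was at 10.98 and the other controls between 7.07 and 7.90. Apart from control 1, nitrate treated mice 1, 4 and 5 lay above the controls, and mice 2 and 3 among them. With all arrays the difference was 0.23 (SE 0.63, P = 0.721, limma; P = 0.797, two-sided exact permutation test). Without control 1 it was 0.79 and past the unadjusted threshold in limma's test (P = 0.0392) but not in the two-sided exact permutation test (P = 0.0952). The range over the 11 mice was 15.01-fold, the largest among the 11 detected probes. The probe, A_51_P324633, lies at chr19:46209762-46209821.

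Dio2, which converts thyroxine to active thyroid hormone, had a log2 signal of 10.79, 11.58, 11.53, 11.63 and 10.99 in old nitrate treated mice. In controls it ran from 10.52 over a median of 11.06 to 11.40. Nitrate treated mice 2, 3 and 4 lay above every control and mice 1 and 5 among them. The difference of 0.31 (SE 0.19) did not pass (P = 0.133, limma; P = 0.173, two-sided exact permutation test). Of the single mice left out, it was past the threshold of limma's test without nitrate treated mouse 1 alone (0.44, P = 0.0358, limma; P = 0.0714, two-sided exact permutation test). The probe, A_51_P208603, lies at chr12:91963235-91963294.

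Ppargc1a and Ppargc1b are coactivators that drive mitochondrial biogenesis, and Ppargc1a is also the cyclic AMP responsive partner of the nuclear receptors at Ucp1. With probe A_51_P279038 (chr5:51848928-51848987) Ppargc1a was at 8.97, 8.61, 10.02, 10.58 and 8.95 in old nitrate treated mice and ran from 8.99 over a median of 9.61 to 10.23 in controls. The nitrate group held the lowest 3 and the highest of the 11 values. The difference of -0.15 (SE 0.36) did not pass (P = 0.703, two-sided exact permutation test). The second probe, A_55_P2011702, lies further along the transcript at chr5:51846926-51846985 and was well above background on 3 of the 5 nitrate arrays and 5 of the 6 control arrays. Its spot was both found and well above background on 2 and 3 of these, so it was not counted as detected.

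Ppargc1b was lower in old nitrate treated mice, at the edge of both limits. Its log2 signal was 7.21, 6.74, 7.18, 7.23 and 7.48, and in controls it ran from 7.26 over a median of 7.47 to 7.60. The first 4 nitrate treated mice lay below every control, and mouse 5 lay in the upper part of the control range. The difference was -0.26 (SE 0.12), a fold change of 1.202 (P = 0.0427, adjusted P = 0.334, limma; P = 0.0303, two-sided exact permutation test). With the slide as a block the call was lost (adjusted P = 0.316, limma, with an unadjusted value above 0.05), and with 1 mouse left out limma's unadjusted P value stayed under 0.05 in 3 of 11 cases. Without slide 1 the difference was -0.09 and without slide 2 it was -0.24, and neither passed (P = 0.457 and P = 0.171, two-sided exact permutation tests), whereas without slide 3 it passed at -0.46 (P = 0.00625, limma; P = 0.0286, two-sided exact permutation test). The probe, A_55_P1993168, lies at chr18:61458222-61458281.

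Prdm16, the transcription factor that sets and keeps brown fat identity against muscle and white fat programs, was higher in old nitrate treated mice. Its log2 signal was 10.45, 10.44, 10.34, 10.55 and 10.67, and in controls it ran from 9.79 over a median of 10.26 to 10.38. Of the 5 nitrate treated mice 4 lay above every control. The means were 10.49 ± 0.12 (SD, n = 5) and 10.19 ± 0.22 (SD, n = 6), a difference of 0.31 with a standard error of 0.11, or 1.24-fold (P = 0.0141, adjusted P = 0.261, limma; P = 0.0108, two-sided exact permutation test). With each mouse left out limma's P value stayed between 0.00925 and 0.0395, with the fold change falling under 1.2 without nitrate treated mouse 5 (0.26) and without control 1 (0.23). The P value passed 0.05 without the arrays of slide 1 (0.22, P = 0.0544, limma; P = 0.0571, two-sided exact permutation test) and without those of slide 3 (0.29, P = 0.0705, limma; P = 0.114, two-sided exact permutation test). Prdm16 is also expressed in vessel wall cells, and which cells gave its signal was not tested. The probe, A_55_P1963547, lies at chr4:153690254-153690313.

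Zic1 is a transcription factor used as a marker of classical brown fat against beige fat. Probe A_55_P2009774, printed above, was well above background on all arrays, at 5.67, 5.88, 5.73, 5.43 and 5.81 in old nitrate treated mice and 5.33 to 5.95 with a median of 5.68 in controls. The groups lay on top of each other, with a difference of 0.01 and a 95% interval of -0.24 to 0.26 (P = 0.929, two-sided exact permutation test). The second probe, A_51_P194230 at chr9:91255425-91255484, was not well above background on any nitrate array and was so on 1 of the 6 control arrays, control 5. A level of Zic1 was therefore read from 1 of its 2 probes.

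**Figure D2:**
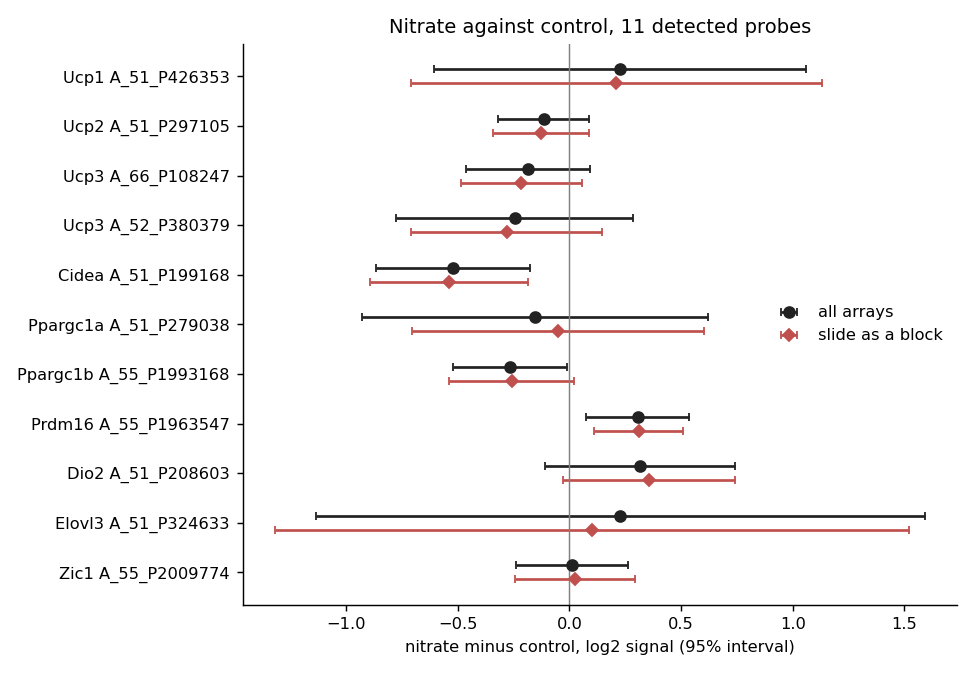
Difference in log2 signal, old nitrate treated mice minus controls, with its 95% interval (horizontal axis) for the 11 detected probes of the thermogenic genes; circles are the comparison of all arrays and diamonds the same with the slide as a block. The intervals of Cidea lie below 0 and those of Prdm16 above 0 in both, that of Ppargc1b crosses 0 with the slide as a block, and Ucp1 and Elovl3 have the widest intervals.

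The arrays lay on 3 slides, each holding both groups. Slide 1 held nitrate treated mice 1 and 2 and controls 1 and 2, slide 2 held nitrate treated mouse 3 and controls 4 and 6, and slide 3 held nitrate treated mice 4 and 5 and controls 3 and 5. Every control and no nitrate treated mouse was in the third column of its slide, so the column and the treatment cannot be told apart. Within slides Ucp1 took different signs, with -0.90 on slide 1, -0.12 on slide 2 and 1.54 on slide 3. Elovl3 did so too, with -1.10, 0.17 and 1.25. Cidea was at -1.0, -0.50 and -0.11, negative on each slide, and Prdm16 at 0.50, 0.05 and 0.30, positive on each. Ppargc1b was at -0.56, -0.30 and 0.07, and Dio2 at 0.58, 0.34 and 0.13.

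A test of whether the difference depended on the slide, chosen after these values had been seen, gave unadjusted P values under 0.05 for Ucp1 and Cidea, as it did for 6.77% of all detected probes, and after adjustment neither passed (adjusted P = 0.730 and adjusted P = 0.731, limma). Without slide 1 the Ucp1 difference was 0.91 (P = 0.0353, limma; P = 0.0857, two-sided exact permutation test), and without slide 3 it was -0.57 (P = 0.143, two-sided exact permutation test). With the slide as a block Cidea at -0.54 and Prdm16 at 0.31 passed both limits (adjusted P = 0.171 and adjusted P = 0.167, limma). These were 2 of the 10 genes, 1 lower and 1 higher, where 10.4% of all detected probes passed, 5.39% lower and 5.02% higher.

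**Figure D3:**
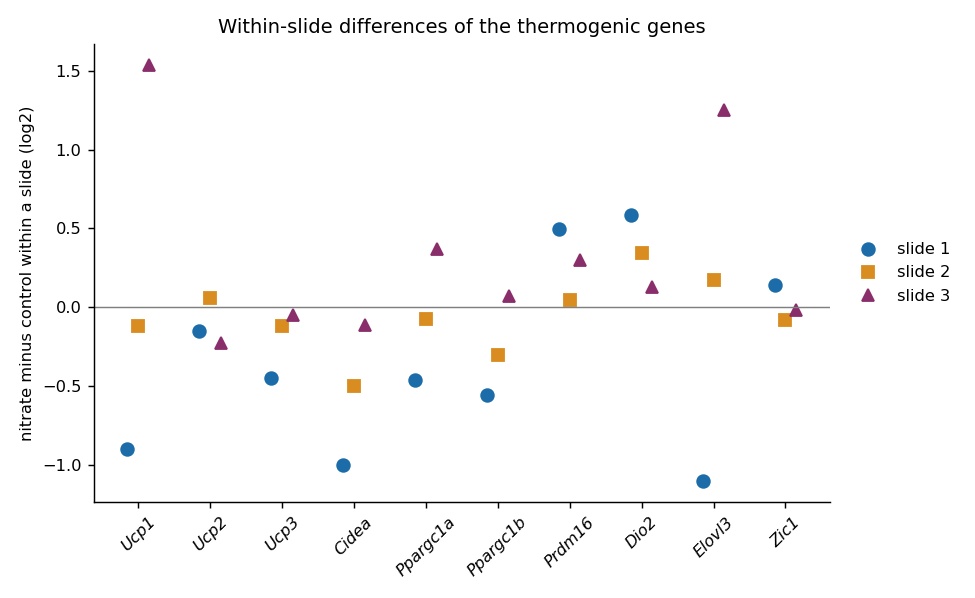
Difference in log2 signal between old nitrate treated mice and controls within each of the 3 slides (vertical axis) for the 10 thermogenic genes, 1 detected probe per gene; each symbol is 1 slide with 3 or 4 arrays. Cidea lies below 0 and Prdm16 and Dio2 above 0 on every slide, and Ucp1 runs from -0.90 to 1.54.

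The arrays with the most Ucp1 signal were also those with the most striated muscle marker signal. Control 1, nitrate treated mouse 4 and nitrate treated mouse 5 had the 3 highest Ucp1 levels and the 3 highest sums of the detected striated muscle markers, 33046, 46607 and 18944 in units of normalized signal, against 8537 to 17406 on the other 8 arrays. The creatine kinase gene Ckm was at 7.20, 7.18 and 5.97 on the log2 scale there and between 4.47 and 5.46 elsewhere. The sarcomere gene Actn2 was at 8.47, 8.76 and 6.94 there and between 5.86 and 6.91 elsewhere. Of 18 striated muscle markers 11 were detected, and 10 of these had a positive difference between the groups, as 53.8% of all detected probes had, with a median over the 11 of 0.48. Ryr2 alone passed the test, 1 of 11 where 9.00% of all detected probes did. The cardiac genes Myh6, Tnni3 and Myl3 were among those detected. Myh6 ran from 8.59 over a median of 10.32 to 14.64 in old nitrate treated mice. In controls it ran from 7.14 over a median of 9.08 to 14.05. The highest Tnni3 levels were 10.48 in old nitrate treated mice and 10.23 in controls, and those of Myl3 10.50 and 8.86. The cardiac genes Myh7, Myl2 and Tnnc1 and the skeletal muscle genes Myh1, Myh2, Myh4 and Actn3 were not detected. The part of this in the Ucp1 levels was not tested.

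Without control 1 and nitrate treated mouse 4, the arrays with the highest such sum of each group, Ucp1 differed by 0.26, Cidea by -0.52 and Prdm16 by 0.21 (P = 0.746, P = 0.0159 and P = 0.0238, two-sided exact permutation tests). Cidea then was the only gene of the 10 thermogenic genes past both limits, beside 9.00% of all detected probes with all arrays. The Prdm16 fold change fell under 1.2, and Ppargc1b, at -0.28, missed the threshold (P = 0.0781, limma; P = 0.0794, two-sided exact permutation test). This setting was chosen after the values had been seen.

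**Figure D4:**
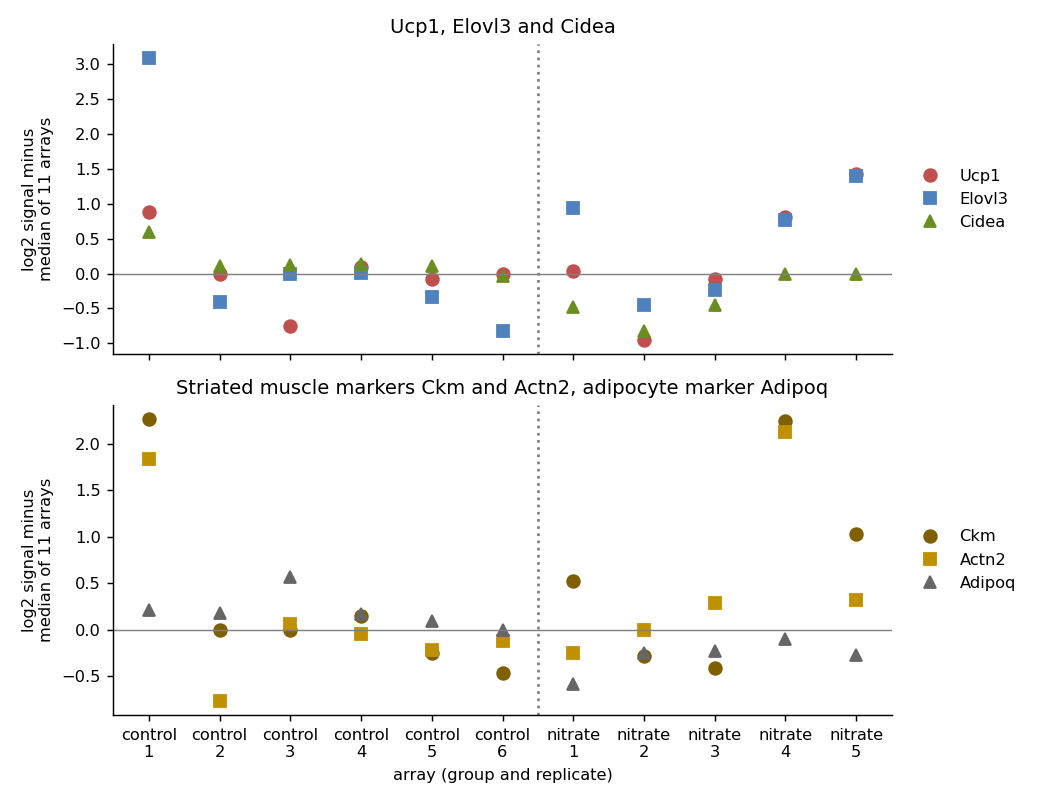
Log2 signal minus the median of the 11 arrays (vertical axes) for Ucp1, Elovl3 and Cidea (upper panel) and for the striated muscle genes Ckm and Actn2 and the adipocyte gene Adipoq (lower panel) on each array; the dotted line divides 6 controls from 5 old nitrate treated mice. Ucp1 and Ckm are highest on control 1 and nitrate 4 and 5, and Adipoq is lower on every nitrate array than on every control array.

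Of 16 adipocyte markers, all detected, 9 were lower in old nitrate treated mice by the rule, where 4.85% of all detected probes were. All 16 differences were negative, as were 46.2% of those of all detected probes, with a median of -0.31, and were so too with 75th percentile scaling and with normexp background correction. Their summed signal was 445209 to 603890 with a median of 536155 in old nitrate treated mice and 564089 to 752626 with a median of 625397 in controls. Adipoq fell by 0.49 on the log2 scale with no overlap between the groups (adjusted P = 0.130, limma; P = 0.00216, two-sided exact permutation test). The lipid droplet gene Plin1 had a difference of -0.24 and the hormone gene Lep one of -0.45, and neither passed. Cidea and these markers moved the same way, and the part of the adipocyte markers in the Cidea difference was not tested.

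The rest of the brown fat pathway was read from 4 lists with 85 detected genes, chosen with earlier results of these data known. Of these, 2 were higher and 14 lower by the rule, while 4.16% and 4.85% of all detected probes were. Without the arrays of slide 1, 4 were higher and 6 lower, against 2.75% and 2.30% of all detected probes. Without those of slide 3, 3 were higher and 23 lower, against 6.39% and 6.71%. With all arrays the difference was negative in 59 of the 85 genes, as in 46.2% of all detected probes, and the median was -0.09. In 5 genes the groups did not overlap, as in 2.75% of detected probes. None had an adjusted P value under 0.05.

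Of 36 detected regulators upstream of the thermogenic genes 8 were lower and 1 higher, where 4.85% and 4.16% of all detected probes were. The beta adrenergic receptor Adrb3, through which noradrenaline reaches adipocytes, was at 11.10, 11.37, 11.81, 11.65 and 11.60 in old nitrate treated mice and from 11.82 over a median of 12.19 to 12.90 in controls. It fell by 0.80 (SE 0.21) with no overlap (adjusted P = 0.167, limma; P = 0.00866, two-sided exact permutation test), and its second probe fell by 0.93. The adipogenic transcription factors Pparg and Cebpa were also lower in every nitrate treated mouse than in every control. Pparg was at 11.71, 11.53, 11.69, 12.16 and 12.15 against 12.22 to 12.68, and fell by 0.57 (SE 0.13), with the smallest P value that an exact permutation of 5 against 6 mice allows (P = 0.00216). Cebpa was at 10.68, 10.65, 10.77, 10.91 and 10.73 against 11.11 to 11.87, and fell by 0.68 (SE 0.12).

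Ebf2, which marks brown fat precursors and acts with Pparg at brown fat genes, fell by 0.54 with no overlap, and Rb1, a pocket protein that restrains brown fat formation, fell by 0.29 with no overlap. The fatty acid receptor Ppara fell by 0.45, its partner Rxra by 0.34 and the potassium channel Kcnk3 by 0.58. The second probe of Rxra, not counted as detected, was at -0.13 and did not pass. Tbx15, a developmental transcription factor of fat depots, was the regulator that rose, by 0.63. Its signal was low, at 5.05 to 6.15 in old nitrate treated mice and 4.64 to 5.31 in controls. With only probes detected on all arrays kept, 1 gene of the 4 lists was higher instead of 2. Cebpb, which works with Prdm16 in brown fat formation, had a difference of -0.27, and the nuclear receptor Esrra, the partner of Ppargc1a, one of -0.07, and neither passed.

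Of 31 detected effectors, 2 were lower and 1 higher, with a median of -0.16, a share near the 9.00% of all detected probes that passed. The fatty acid transport protein Slc27a1 fell by 0.47, and the small heat shock protein Hspb7 rose by 0.49. The brown fat isoforms of cytochrome oxidase subunits, Cox7a1 and Cox8b, had differences of -0.26 and -0.35, and the fatty acid genes Fabp3, Cpt1b and Plin5 of -0.17, -0.15 and -0.27, none of which passed.

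Of 9 detected beige fat markers 2 were lower, as were 2 of 9 mitochondrial carriers and 4.85% of all detected probes. Among the genes listed as beige fat markers the amino acid transporter Slc36a2 fell by 0.56 and the glycerol channel Aqp7 by 0.44, and the median was -0.00. Whether Slc36a2 and Aqp7 are particular to beige cells was not tested. Among the carriers the dicarboxylate carrier Slc25a10 fell by 0.80 and Slc25a44, which carries branched-chain amino acids, by 0.33, whereas the second probe of Slc25a44 was at 0.06 and did not pass. Of 15 macrophage and 10 endothelial markers none passed, and of 10 smooth muscle markers 1 did, Lmod1, near the 9.00% of all detected probes. Positive differences were found in 13 macrophage, 5 endothelial and all 10 smooth muscle markers, and in 53.8% of all detected probes. With 75th percentile scaling 12 macrophage markers, and with normexp correction 4 endothelial markers, had one. With the slide as a block the 4 brown fat lists held 16 lower and 2 higher genes, where 5.39% and 5.02% of all detected probes passed.

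**Figure D5:**
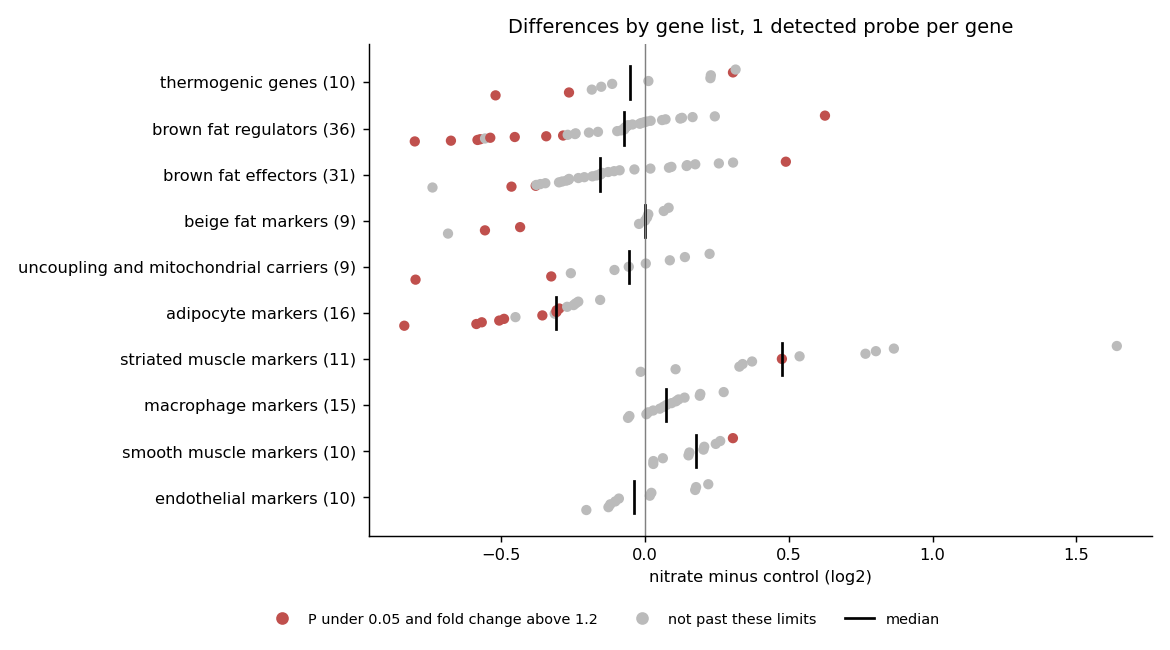
Difference in log2 signal, old nitrate treated mice minus controls (horizontal axis), of every detected gene of each list, 1 probe per gene with the number of genes in brackets; red points passed the limits on the P value and fold change, grey points did not, and black bars are medians. All 16 adipocyte markers lie below 0, 10 of the 11 striated muscle markers lie above 0, and the thermogenic genes scatter around 0.

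The genes whose levels over the 11 arrays were most like Ucp1 and like Cidea were ranked by Pearson's r among 12213 detected genes, as a description. The 8 most like Ucp1 were Cpn2, S100b, Gmpr, Fabp3, Car14, Tmem37, Spsb3 and Tomm5, with r from 0.89 to 0.92. Without control 1 and nitrate treated mice 4 and 5, over the other 8 arrays, r was between 0.52 in Spsb3 and 0.90 in Gmpr. No test was made. The 8 most like Cidea were Ybx2, Kcnk3, Slc36a2, 1700028B04Rik, Ptp4a1, Ndufs7, Cox8a and Clic5, with r from 0.97 to 0.98. Over the 8 arrays other than control 1 and nitrate treated mice 4 and 5, r was between 0.955 in Ndufs7 and 0.98 in these genes. Kcnk3 and Slc36a2 of this group were among the brown fat genes that passed the test, and S100b and Fabp3 of the Ucp1 group were in the effector list without passing.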

How the data were processed

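Aortic RNA of 11 mice was measured on one-color Agilent arrays, 1 array per mouse. Per the file headers, the authors deposited spot intensities from Feature Extraction 10.7.1.1, background-subtracted and not normalized between arrays, with quality flags and probe positions in mm9. The authors also deposited a log2 table, quantile normalized and median-centred per probe, as a script checked against these intensities (r at least 0.9999), and it served as an alternative.

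The processed signal was floored at 1, outlier-flagged spots were left out (107 to 186 of 59305 per array), log2 values were quantile normalized, and spots of a probe were averaged. No spot was saturated. Per array, the signal's 75th percentile was 213 to 289, and 24763 to 28672 probes were detected per array. Precision is limited by the number of arrays. Groups came from the sample titles.

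Groups were compared with lmFit and eBayes of limma 3.58.1 in R 4.3.3 over all 23633 detected probes, with Benjamini-Hochberg adjustment, and single probes also by two-sided exact permutation over 462 divisions of the mice. Scripts were tested on simulated data. Lists used the brightest detected probe of a gene. All probes of the 10 genes, list genes that passed, a fixed set of pathway and marker genes, and the 8 genes most like Ucp1 and Cidea were named, and Ryr2 and Lmod1 were added once their values were known. One effector that passed is counted but not reported here by name. The members and lists were chosen with earlier results of these data known. Alternatives covered scaling, background correction, offset, filter, flags, prior variance, choice of probe, slide and replicate blocks and each array left out; slides left out and the pair of arrays with most striated muscle signal left out were added after seeing the data.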

Additional observations from a re-analysis of the deposited data

Results flagged for a closer look

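Single arrays that stood apart from the rest of their group by Dixon's test are given here, with the gap to the nearest array as a share of the group's range. Of 53 quantities tested in each group, 11 were flagged in controls and 4 in old nitrate treated mice, where chance flags about 1 in 20 groups, or 5.3 in all, and control 1 was the array in 9. The quantities share arrays and many move together.

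Among the thermogenic genes, control 1 was highest in Cidea (0.715, at 17.37 with the nearest control at 16.92) and in Elovl3 (0.789, at 10.98 with the nearest at 7.90). In the Zic1 probe A_51_P194230, control 5 was highest (0.819), the only array on which it was well above background, and nitrate treated mouse 3 was highest in its group (0.827) with no array above background. Among other brown fat genes, control 1 was highest in Cox8b (0.683), in Kcnk3 (0.760) and in the summed signal of the brown fat effectors (0.811), and nitrate treated mouse 4 was lowest in Rb1 (0.724).

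Control 1 was also highest in the striated muscle genes Actn2 (0.681) and Ckm (0.776) and in the striated muscle sum (0.725), and lowest in the smooth muscle sum (0.674). Nitrate treated mouse 4 was highest in Actn2 (0.763) and in the striated muscle sum (0.895). Control 3 was highest in Adipoq (0.628).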

How the results depend on the processing

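The number of the 10 thermogenic genes passing both limits was 3 with all arrays, where 9.00% of all detected probes passed. It was 2 or 3 under each alternative except without control 1 and nitrate treated mouse 4, where it was 1. The genes were not always the same, with 1 higher and 2 lower in all arrays, 2 higher and 0 lower without slide 1, and 0 higher and 2 lower without slide 3. The number of differentially expressed transcripts, 2128, was 1218 with normexp background correction, 3224 without the detection filter and 1195 without slide 1. With 1 array left out it lay between 1596 and 2424, the thermogenic genes between 2 and 3, single thermogenic probes with a permutation P value under 0.05 between 2 and 3, and further brown fat genes, 16 with all arrays, between 14 and 21. Further brown fat genes numbered 10 without slide 1 (4 higher, 6 lower) and 26 without slide 3. Without slide 1, 0 single thermogenic probes had an exact permutation P value under 0.05, where limma's test gave Ucp1 and Elovl3 unadjusted P values under 0.05. The split into higher and lower calls was 436 to 782 with normexp and 1715 to 1509 without the filter, against 982 to 1146.

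Of 25 alternatives, Cidea passed both limits in 24, Prdm16 in 20 and Ppargc1b in 9, and the P value alone was under 0.05 in 24, 23 and 10, with the direction kept in the others. The sign turned in differences that had not passed. Without slide 1, Zic1 (A_55_P2009774) was at -0.066, Ucp3 (A_52_P380379) at 0.016 and the Ppargc1a probes at 0.105 (A_51_P279038) and 0.142 (A_55_P2011702). Without slide 3, Ucp1 was at -0.57 and Elovl3 at -0.38, and with 75th percentile scaling Zic1 was at -0.012. With 1 array left out, Ucp1 lay between -0.067 and 0.53, Elovl3 between -0.0016 and 0.79, Zic1 (A_55_P2009774) between -0.061 and 0.079, and the Ppargc1a probes between -0.44 and 0.052 (A_51_P279038) and between -0.64 and 0.13 (A_55_P2011702). The causes were not tested.

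Same-numbered mice of the groups did not deviate together (r between -0.17 and 0.19). Whether the numbers paired the samples in their handling was not tested. A replicate block gave 2433 transcripts, 2 thermogenic genes and 20 further brown fat genes. Exact permutation tests were not run for the prior variance and the blocks. The number of arrays limits differences that can be seen, with 95% intervals of -0.61 to 1.06 for Ucp1 and -0.32 to 0.09 for Ucp2.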
